A study of Mus musculus with 4 samples.

Results

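The genes described here encode the proteins that link Themis1 to the T cell receptor (TCR) cascade: Themis and its relative Themis2, the phosphatases SHP-1 (Ptpn6) and SHP-2 (Ptpn11), the adaptor Grb2, the Ras activators Sos1 and Sos2, and the Rac activators Vav1, Vav2 and Vav3. These 10 genes, named for their place in the pathway, were matched by gene ID and symbol among the 52636 genes of the deposited table. RNA was sequenced from regulatory T cells, sorted as CD4+CD62L+CD25bright from C57BL/6 mice 7 weeks old, in 2 groups of 2 libraries each. The first group is labelled Vav1R63WThemis1-T-/-, titled KITKO, and by that label its mice lack Themis1 in T cells on the Vav1R63W background. In spite of that label, 1 of its libraries had the most Themis reads of all 4, as given below. The second, labelled Vav1R63W and titled KI, has the same Vav1 allele with Themis1 present. By their labels all 4 libraries carry Vav1R63W, and no Vav1 wild-type library was analysed here. The Cre driver of the deletion, and whether a library came from 1 animal or a pool, are not given in the sources used here. Whether replicates are separate animals is not stated either, and a p-value here reflects the spread of libraries that may be technical repeats.

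In a T cell, engagement of the TCR leads the kinases Lck and ZAP-70 to phosphorylate the scaffold LAT, and Grb2 brings its partners there. Grb2 binds Themis1 as well as the Sos proteins, which load Ras with GTP, and the Themis1 and Grb2 pair also associates with SHP-1, a phosphatase that removes tyrosine phosphates from early signalling proteins. Vav1 both loads Rac GTPases and acts as an adaptor. It is the Vav protein most associated with TCR signalling, and it is needed for actin, calcium and NF-kB responses in T cells. By its title, the study concerns an axis from Themis1 and SHP-1 to Vav1 and the NF-kB subunit RelA.

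The allele shared by all libraries, R63W, replaces the arginine at residue 63 of Vav1 by tryptophan. The coding stretch around that codon is shown to place the allele and to compare it with the other Vav genes. In the reference, codon 63 of Vav1 lies in exon 1 at GRCm38 chr17:57279384-57279386 (plus strand), codon 63 of Vav2 in exon 1 at chr2:27426291-27426293 (minus strand), and codon 63 of Vav3 in exon 1 at chr3:109341225-109341227 (plus strand). Each line gives 63 bases of spliced GENCODE M21 coding sequence, 5′ to 3′, running from exon 1 into exon 2, with the codon for residue 63 in capitals.
Vav1: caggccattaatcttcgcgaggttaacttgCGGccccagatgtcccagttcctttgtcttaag
Vav2: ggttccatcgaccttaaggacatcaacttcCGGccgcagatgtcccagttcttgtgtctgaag
Vav3: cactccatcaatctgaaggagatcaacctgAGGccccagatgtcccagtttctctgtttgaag
The capital codon encodes arginine in all 3 genes, with the same letters in Vav2 as in Vav1 and a different arginine codon in Vav3. Of the 63 bases, 45 are the same as in Vav1 for Vav2, and 48 for Vav3. These are reference sequences. Gene-level counts do not show which Vav1 allele a read came from.

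Reads assigned to genes ran from 13963670 to 15953194 per library, and 10809 to 12049 genes had a read. Levels below are CPM, a gene's reads scaled to 1 megaread of that total. The lineage gene Foxp3 was at 1014 and 737 CPM in KITKO replicates 2 and 3, against 904 and 636 CPM in KI replicates 2 and 3. Il2ra (CD25) was at 223 and 325 CPM in the KITKO libraries, against 310 and 274 CPM in the KI libraries, and Cd4 at 193 and 241 CPM, against 295 and 179 CPM. All 8 regulatory T cell markers had reads. Of the 10 members, 9 had reads and passed the low-count filter, and Themis2 had 0 reads. Sos2 passed through the KI libraries alone, and 3 of the tested members had 0 reads in at least 1 library.

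Themis, the targeted gene, had 685 and 0 reads in the libraries labelled KITKO, replicates 2 and 3, against 283 and 97 reads in KI replicates 2 and 3. On the CPM scale this was 42.9 and 0 in the KITKO libraries, against 20.2 and 6.74 in the KI libraries. The highest and the lowest value both belonged to libraries labelled Themis1-deleted, so the groups overlapped. KITKO replicate 2 thus had the most Themis reads under a label of deletion, and gene-level counts do not show which exons they cover. Directions below are therefore between labels, and are also given without that library where it changes them. The gene lies on GRCm38 chromosome 10 from 28668360 to 28883818 on the plus strand (ENSMUSG00000049109).

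The 0 in KITKO replicate 3 was also a 0 in both strand columns of that library, which limits Themis there to 0.215 CPM (3 reads, counting error only). In KITKO replicate 2 the strand columns held 342 and 363 Themis reads, so both strands contributed in near-equal number; the kit named in the labels does not mark strand. A pseudogene on the opposite strand, 4930519F09Rik, shares 153 exon bases (1.31% of the Themis exons) and had 20 and 0 reads in the summed strand columns of the KITKO libraries, against 26 and 0 in the KI libraries. Overlap with that gene therefore touched few Themis reads. The fold change did not pass the test, at log2 0.68 ± 2.74 (SE; edgeR adjusted p = 1.000). It was -10.55 without KITKO replicate 2 (edgeR adjusted p = 0.463), a value fitted against a single library with 0 reads.

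Zeros of this kind were more frequent in KITKO replicate 3 than in the other libraries. Of 6402 genes with at least 97 reads (the lowest Themis count elsewhere) in each of the other libraries, 178 (2.78%) had 0 reads in KITKO replicate 3. The same share was 0.551% of 5811 genes for KITKO replicate 2, 0.483% of 5802 for KI replicate 2 and 0.777% of 5920 for KI replicate 3. Zeros were rarer at the Themis count of KITKO replicate 2. Of 3990 genes with at least 685 reads there, 19 (0.476%) had 0 reads in KITKO replicate 3. For the same genes the share was 0.150% in KI replicate 2 and 0.175% in KI replicate 3. The part of the deletion and of such missing genes in the Themis zero was not tested. Gene-level counts show neither the deleted exons nor reads outside them.

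The genes whose pattern over the 4 libraries lay closest to that of Themis were Nagk, Nr1d2 and Efl1, at a root mean square distance of 0.09, 0.15 and 0.16 on the centred log2(CPM + 1) scale. Nagk, a kinase of amino sugar metabolism, was at 49.3 and 0.0716 CPM in the KITKO libraries, against 22.9 and 8.89 CPM in the KI libraries. Nr1d2, a nuclear receptor of the circadian clock, was at 51.5 and 0 CPM in the KITKO libraries, against 22.9 and 6.11 CPM in the KI libraries. Efl1, a GTPase of ribosome assembly, was at 49.3 and 0 CPM in the KITKO libraries, against 20.8 and 9.31 CPM. These genes were chosen for that pattern, so their values are a description.

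Themis2, the Themis relative of B cells and macrophages, had 0 reads in all 4 libraries, which limits it to between 0.188 and 0.215 CPM by library (3 reads). Of 13 B cell markers, 5 had reads, with a summed level of 1326 and 1370 CPM in the KITKO libraries, against 1207 and 1313 CPM in the KI libraries. Nearly all of it was Ighm, the immunoglobulin mu chain, at 1274 and 1307 CPM in the KITKO libraries, against 1111 and 1234 CPM in the KI libraries. Cd79b, a chain of the B cell receptor, was at 35.5 and 62.7 CPM, against 58.3 and 63.5 CPM. Bank1 had 228 and 1 reads in the KITKO libraries, against 396 and 137 reads in the KI libraries. Cd79a had 38 and 0 reads in the KITKO libraries, against 135 and 77 reads in the KI libraries. The markers Ms4a1 and Pax5 had 0 reads in every library. Of 14 monocyte and macrophage markers, 4 had reads, with a summed level of 840 and 1037 CPM in the KITKO libraries, against 756 and 822 CPM in the KI libraries. The protease gene Ctss made up 840 and 1003 CPM of this in the KITKO libraries, against 735 and 806 CPM in the KI libraries. Cybb was at 0 and 15.8 CPM in the KITKO libraries and at 18.6 and 16.9 CPM in the KI libraries. Tyrobp had 0 and 215 reads in the KITKO libraries, against 45 and 0 reads in the KI libraries. Fcer1g had 46 reads in KITKO replicate 3 alone, whereas Lyz2, Csf1r and Itgam had 0 reads. Immature thymocytes are cells with high Themis, and their markers had reads for 4 of 9 and summed to 195 and 108 CPM in the KITKO libraries, against 144 and 175 CPM in the KI libraries. Their most abundant members were Cd1d1, at 81.6 and 58.2 CPM against 60.8 and 55.1 CPM, and Tcf12, at 83.4 and 30.4 CPM against 47.8 and 81.7 CPM. Cd8b1 was at 30.3 and 19.3 CPM in the KITKO libraries, against 26.1 and 38.55 CPM in the KI libraries. Dntt had 132 reads in KI replicate 2 alone, and Rag1, Rag2 and Ptcra had 0 reads. The part of other cells in the values of the members was not tested.

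**Figure D1:**
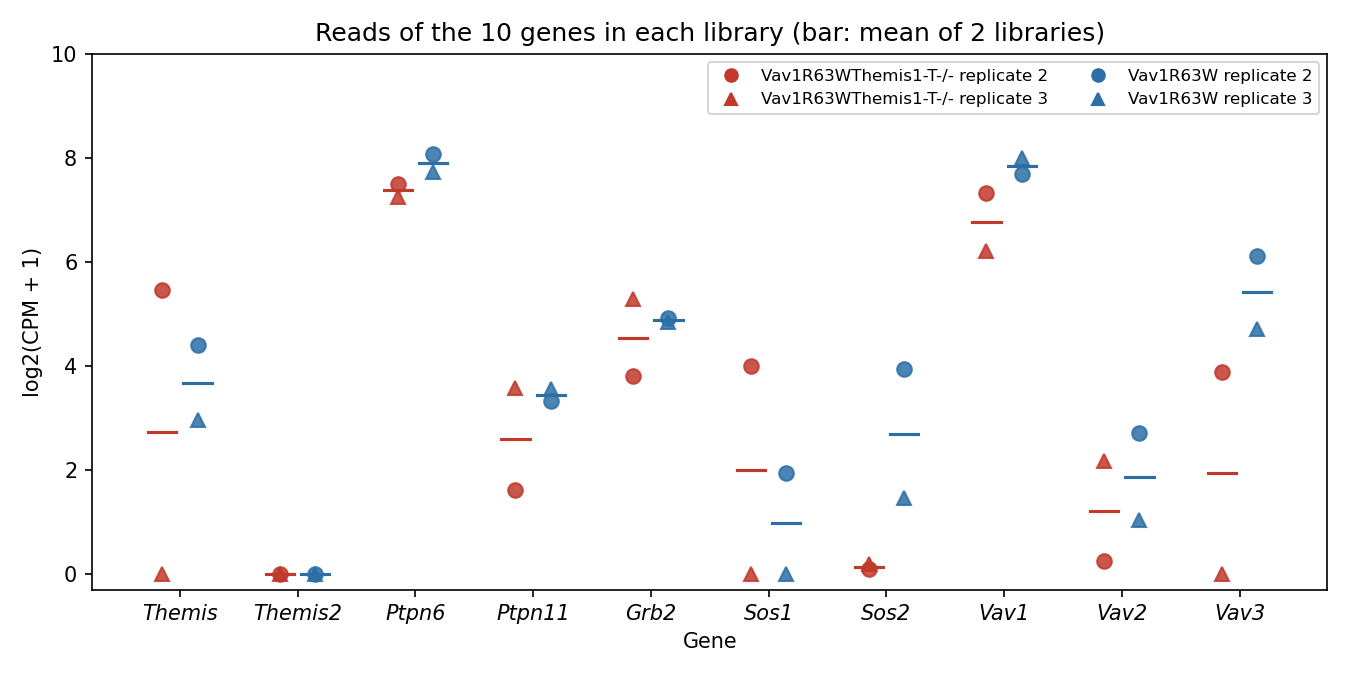
Level of each of the 10 genes in each library as log2(CPM + 1), with Vav1R63WThemis1-T-/- (KITKO) libraries in red left of Vav1R63W (KI) libraries in blue; circles are replicate 2, triangles replicate 3 and bars the means of 2 libraries. Ptpn6 and Vav1 stand above the other genes with both KITKO points below both KI points, and the red Themis points are the highest and the lowest of that gene.

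Ptpn6 and Vav1 were the most abundant members, and both were lower in the libraries labelled KITKO, but the test called neither. Ptpn6, which encodes SHP-1 (ENSMUSG00000004266, GRCm38 chromosome 6, 124720707 to 124738714, minus strand), had 2856 and 2124 reads in the KITKO libraries, against 3753 and 3038 reads in the KI libraries. This corresponds to 166 ± 19.0 CPM in the KITKO libraries and 240 ± 40.3 CPM in the KI libraries (SD, n = 2 each). The groups did not overlap. The log2 fold change, -0.51 ± 0.22 (SE), corresponds to a ratio of 0.704 and did not pass (edgeR adjusted p = 1.000). It ranged from -0.65 to -0.36 when each library was left out in turn. With groups that do not overlap, leaving out 1 library could hardly change its sign, so the kept sign is not further support.

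The unstranded count leaves out part of the Ptpn6 reads, because an antisense gene, Gm20531, shares 195 bases (6.96%) of its exons. The strand columns of Ptpn6 together held 3609 and 2697 reads in the KITKO libraries, against 4714 and 3834 reads in the KI libraries. The unstranded column held 79.1% and 78.8% of those in the KITKO libraries, against 79.6% and 79.2% in the KI libraries, so the share left out was nearly the same in every library. Gm20531 had 0 reads in the unstranded column in each library and 753 and 573 in the summed strand columns of the KITKO libraries, against 962 and 796 in the KI libraries. Without strand marking, the 2 genes cannot be told apart in that stretch. With the summed strand columns the log2 fold change of Ptpn6 was -0.49 (edgeR adjusted p = 1.000).

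**Figure D2:**
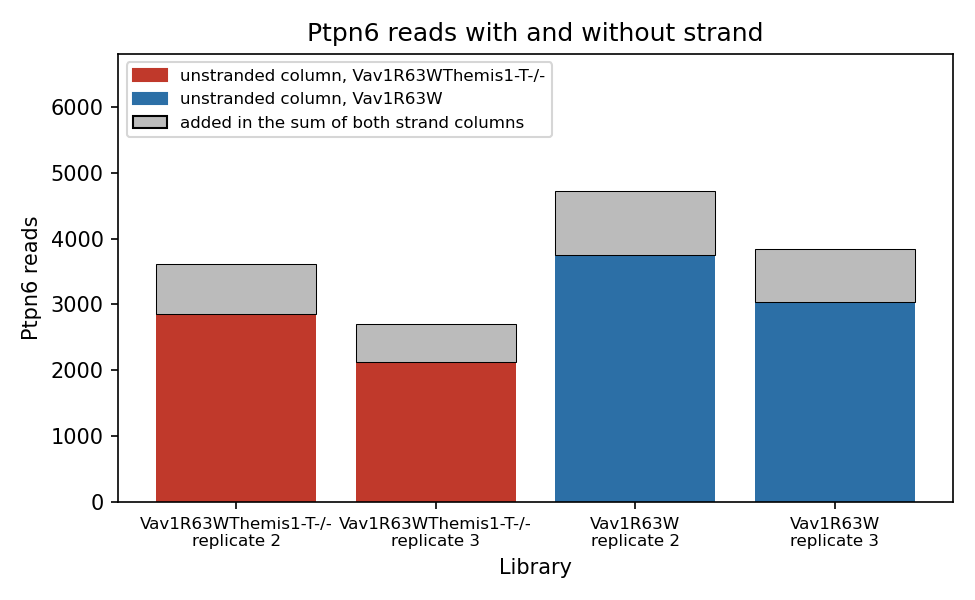
Ptpn6 reads in each library (y axis, raw reads), with the unstranded column in red for Vav1R63WThemis1-T-/- and in blue for Vav1R63W, and in grey the reads added when both strand columns are summed. The grey part is close to the same share of every bar, and the KITKO bars (2856 and 2124 reads) are below the KI bars (3753 and 3038 reads) with or without it.

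Vav1 (ENSMUSG00000034116, plus strand of GRCm38 chromosome 17, 57279100 to 57328031) had 2560 and 1027 reads in the KITKO libraries, against 2881 and 3649 reads in the KI libraries. It averaged 117 ± 61.5 CPM in the KITKO libraries and 230 ± 33.7 CPM in the KI libraries (SD, n = 2 each). Both KITKO libraries were below both KI libraries, but KITKO replicate 2 at 160.5 CPM was nearer to KI replicate 2 at 206 CPM than to KITKO replicate 3 at 73.6 CPM. The log2 fold change, -0.96 ± 0.44 (SE), corresponds to a ratio of 0.515 and did not pass (edgeR adjusted p = 1.000). It was -1.60 without KITKO replicate 2 (edgeR adjusted p = 0.438) and -0.52 without KITKO replicate 3. No exon of another annotated gene overlaps Vav1, and the unstranded column held 100% of its strand reads in each library.

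Fewer cells with a transcript and less transcript per cell cannot be told apart in these bulk libraries, for Vav1 and for the genes that follow. The genes closest to Vav1 in pattern were Gnpnat1, BC005624 and Shmt2, at distances of 0.05, 0.06 and 0.07 on the centred log2(CPM + 1) scale. Shmt2, a mitochondrial enzyme of serine metabolism, was at 136 and 66.9 CPM in the KITKO libraries, against 195 and 245 CPM in the KI libraries. Zcchc9 and Map3k1 were among those closest to Ptpn6, each at a distance of 0.04. Map3k1, a kinase of the JNK route, was at 23.7 and 19.6 CPM in the KITKO libraries, against 38.4 and 28.6 CPM in the KI libraries.

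Vav3, a broadly expressed activator of Rac GTPases, had 219 and 0 reads in the KITKO libraries, against 952 and 365 reads in the KI libraries. The groups did not overlap, and as for Themis the 0 fell in KITKO replicate 3. Vav3 averaged 6.86 ± 9.71 CPM in the KITKO libraries and 46.7 ± 30.1 CPM in the KI libraries (SD, n = 2 each). Its fold change was log2 -2.75 ± 2.49 (SE; edgeR adjusted p = 1.000). Without KITKO replicate 2 it was -12.34, a value fitted against a single library with 0 reads. Without KITKO replicate 3 it was -1.76 (edgeR adjusted p = 0.862), and without KI replicate 2 it was -1.92. Of 5125 genes with at least 219 reads in each of the other libraries, 60 (1.17%) had 0 reads in KITKO replicate 3, against 0.0843% of 4748 for KITKO replicate 2, 0.168% of 4749 for KI replicate 2 and 0.351% of 4850 for KI replicate 3.

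Vav2, also broadly expressed, was scarce, with 3 and 49 reads in the KITKO libraries, against 78 and 15 reads in the KI libraries. Its groups overlapped, and its log2 fold change of -0.77 ± 1.999 (SE, edgeR adjusted p = 1.000) turned positive without KITKO replicate 2 or KI replicate 2. Per kilobase of exon, Vav1 made up 94.95% and 97.5% of the CPM of the 3 Vav genes in the KITKO libraries, against 82.1% and 94.0% in the KI libraries. Vav1 was thus the main Vav transcript in every library.

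Ptpn11, which encodes SHP-2, a phosphatase that mostly promotes Ras signalling, had 33 and 153 reads in the KITKO libraries, against 127 and 154 reads in the KI libraries. KITKO replicate 3 was level with the KI libraries and KITKO replicate 2 was below them. Its fold change did not pass, at log2 -0.56 ± 1.63 (SE; edgeR adjusted p = 1.000), and was 0.19 without KITKO replicate 2. SHP-1 transcripts exceeded SHP-2 transcripts in every library: the ratio of Ptpn6 to Ptpn11 CPM per kilobase was 231 and 37.1 in the KITKO libraries, against 79.0 and 52.8 in the KI libraries. The ratio of Ptpn6 to Vav1 on the same scale was 1.47 and 2.72 in the KITKO libraries, against 1.715 and 1.10 in the KI libraries, and overlapped between groups. Both ratios use the unstranded column, which held 78.8% to 79.6% of Ptpn6 strand reads but 100% of those of Vav1 and Ptpn11. Ptpn6 may therefore be understated in them and in the order per kilobase below.

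Grb2, the adaptor that joins Themis1 and Sos to LAT, had 206 and 535 reads in the KITKO libraries, against 408 and 400 reads in the KI libraries. The KI libraries lay between the KITKO libraries. Grb2 averaged 25.6 ± 18.0 CPM in the KITKO libraries and 28.5 ± 0.957 CPM in the KI libraries (SD, n = 2 each), with a log2 fold change of -0.11 ± 0.87 (SE, edgeR adjusted p = 1.000), and 0.47 without KITKO replicate 2.

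The Ras activators were scarce and uneven. Sos1 had 239 and 0 reads in the KITKO libraries, against 40 and 0 reads in the KI libraries, so replicate 3 of each group had none. Its log2 fold change of 2.41 ± 3.68 (SE, edgeR adjusted p = 1.000) became -7.31 without KITKO replicate 2 and 9.76 without KI replicate 2. Sos2 had 1 and 2 reads in the KITKO libraries, against 200 and 25 reads in the KI libraries, and its groups did not overlap. Its log2 fold change was -6.13 ± 2.24 (SE), and -3.97 without KI replicate 2, which held most of its reads. The edgeR test gave an unadjusted p of 0.0482 and an adjusted p of 0.996 for Sos2, and the KI libraries themselves differed 8.23-fold.

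Ordered by mean CPM per kilobase of exon over the 4 libraries, the members ran Ptpn6 (72.3), Vav1 (47.0), Grb2 (9.27), Vav3 (4.46), Themis (1.496), Ptpn11 (1.09), Sos2 (0.476), Sos1 (0.421), Vav2 (0.373) and Themis2 (0). These means pool both labels, also for the targeted gene. Themis was at 3.68 and 0 CPM per kilobase in the KITKO libraries, against 1.73 and 0.577 in the KI libraries. Ptpn6 was above Vav1 in 4 of 4 libraries, although the ranges over libraries overlapped. Vav1 was above Grb2 in 4 of 4 libraries with no overlap, its lowest value being 19.9 and the highest of Grb2 13.1. From Grb2 down to Vav2 each gene's range overlapped that of the next, so the order of neighbours there is not resolved by these libraries. The lowest value of Grb2, 4.43, was still above the highest of Themis, 3.68, and above every value of Ptpn11, Sos2, Sos1 and Vav2. Exon length is the union of all annotated exons, 11.7 kb for Themis and 3.69 kb for Vav1, and a gene that uses a shorter transcript has a higher level per kilobase than given.

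Members differed in how far replicate libraries lay apart. On the log2(CPM + 1) scale the median distance between replicate libraries over 10216 tested genes was 0.77 in KITKO and 0.60 in KI. Ptpn6 lay below that median in both groups, at 0.23 in KITKO and 0.34 in KI. Vav1 was at 1.12 in KITKO and 0.30 in KI, Grb2 at 1.499 and 0.07, and Ptpn11 at 1.96 and 0.22, so for these genes the KITKO libraries were farther apart than the KI libraries. Themis was at 5.46 in KITKO and 1.46 in KI, Vav3 at 3.88 and 1.39, Sos1 at 3.998 and 1.95, and Vav2 at 1.92 and 1.69. Sos2 went the other way, at 0.11 in KITKO and 2.48 in KI. No test of this difference in spread was made.

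Across the members the edgeR quasi-likelihood test called 0 of 9, against 0% of 10216 genes over the whole table. At an unadjusted p under 0.05 it gave 1 member (Sos2), where 4.98% of all tested genes were under that limit. DESeq2 called 0 of the 9 members, against 1.88% of 10972 genes, and limma-voom called 0, against 0% of 10216 (4.29% at an unadjusted p under 0.05). Among the members 6 have an adjusted p in the authors' deposited table, of which 0 are under 0.05, against 1.56% of the 7865 genes with one. There Vav1 has a log2 fold change of -0.75 (adjusted p = 0.273) and Ptpn6 of -0.465 (adjusted p = 0.312), in the authors' deposited table. The authors' log2 values are smaller in size than the edgeR values, so the 2 are not on one scale. Vav3 has -0.117 there against -2.75 with edgeR, and Themis 0.071 against 0.68. DESeq2 run here at its defaults gave values level with edgeR, at -2.75 for Vav3 and 0.68 for Themis. The reason was not tested. An exact permutation test of 2 libraries against 2 cannot go below p = 0.333 (two-sided).

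KITKO libraries lay wholly below KI libraries for 4 of the 9 tested members (Ptpn6, Sos2, Vav1 and Vav3), where this held for 18.7% of all tested genes, and wholly above for 0 of 9, where this held for 15.1%. Among the 9, 7 fold changes were negative and 2 positive, with a median log2 of -0.56. Over all tested genes 5095 were negative and 5121 positive, with a median below 0.01. The filter let a gene in through the group where it was high, as for Sos2, so these shares describe the tested genes and are not a test of the set.

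**Figure D3:**
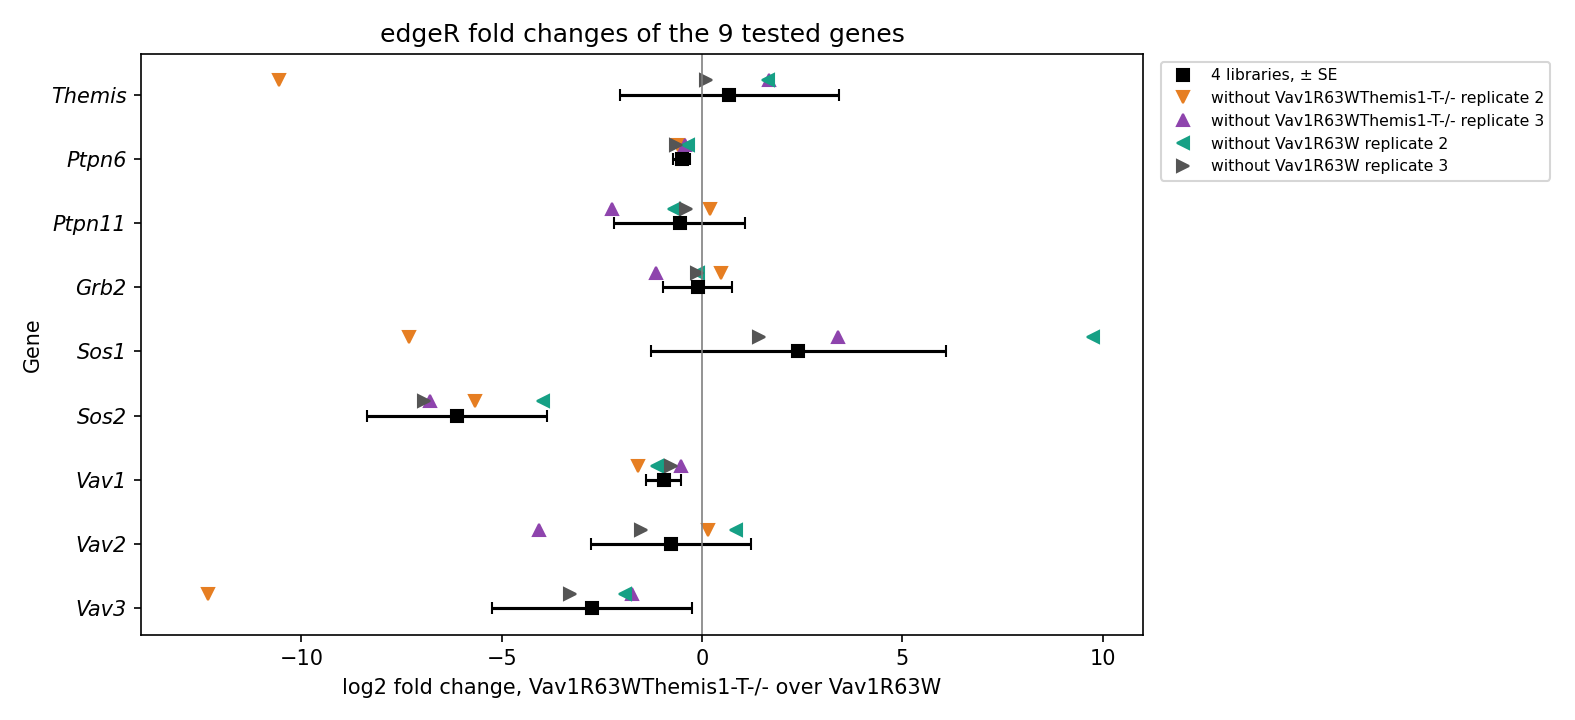
Log2 fold change of the 9 tested genes, Vav1R63WThemis1-T-/- over Vav1R63W, from edgeR on all 4 libraries (black squares, bars are SE) and with each library left out (coloured triangles). The triangles of Ptpn6 stay between -0.65 and -0.36, whereas without KITKO replicate 2 Vav3 is at -12.34, Themis at -10.55 and Sos1 at -7.31, and Sos1 is at 9.76 without KI replicate 2.

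The other genes of these routes were taken from 5 lists with 115 genes, of which 99 had enough reads to be tested. edgeR called 0 of the 99, against 0% of 10216 genes over the whole table. DESeq2 called 1, Cd247, where it called 1.88% of 10972 genes over the whole table. Of the 7865 genes with an adjusted p in the authors' deposited table, 1.56% are under 0.05. Of the pathway genes, 94 have one there, and 2 of these are under 0.05. They are Cd247, at a log2 fold change of 1.33 (adjusted p = 5.43e-07), and Rasgrp1, at 1.03 (adjusted p = 0.00699), in the authors' deposited table. The lists and the members were chosen with earlier results of these data known. Among TCR-proximal kinases and adaptors, 30 of 32 were tested and 21 had a positive and 9 a negative log2 fold change, with a median of 0.17. KITKO libraries lay wholly below KI libraries for 4 of these 30 and wholly above for 7, where all tested genes gave 18.7% and 15.1%. Cd247, the CD3 zeta chain whose motifs recruit ZAP-70, was at 284 and 335 CPM in the KITKO libraries, against 103 and 126 CPM in the KI libraries, and the groups did not overlap. The fold change was log2 1.46 ± 0.23 (SE; edgeR adjusted p = 0.900, DESeq2 adjusted p = 0.00103). Dok2, an adaptor that restrains Ras, was at 296 and 342 CPM in the KITKO libraries, against 201 and 247 CPM in the KI libraries (log2 0.54 ± 0.22, edgeR adjusted p = 1.000).

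Among Rac, Cdc42 and related GTPases and their effectors, the route that Vav proteins act on, 22 of 24 were tested, 12 positive and 10 negative, with a median log2 fold change of 0.03. Pak2, a kinase activated by Rac and Cdc42, was at 308 and 267 CPM in the KITKO libraries, against 211 and 173 CPM in the KI libraries (log2 0.61 ± 0.19, edgeR adjusted p = 0.902). Arhgef1, an activator of RhoA, was at 545 and 591 CPM in the KITKO libraries, against 722 and 686 CPM in the KI libraries (log2 -0.28 ± 0.13, edgeR adjusted p = 1.000). Neither gene's groups overlapped, and neither passed. Both were named for the smallest p of this list. Of its 22 tested genes, KITKO libraries lay wholly below KI libraries for 3 and wholly above for 5, where all tested genes gave 18.7% and 15.1%.

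Along the Ras and ERK route that starts with Grb2 and Sos, 22 of 25 were tested, 11 positive and 11 negative, with a median of -0.02. Rasgrp1, the main Ras activator beside Sos in T cells, was at 213 and 189 CPM in the KITKO libraries, against 109 and 71.5 CPM in the KI libraries (log2 1.18 ± 0.30, edgeR adjusted p = 0.900, DESeq2 adjusted p = 0.116). Braf, a kinase upstream of MEK, was at 0.501 and 48.2 CPM in the KITKO libraries, against 4.29 and 2.29 CPM in the KI libraries. The log2 fold change of Braf, 2.94 ± 2.28 (SE, edgeR adjusted p = 1.000), turned to -2.69 without KITKO replicate 3, which alone held most of its reads.

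Of the 18 listed receptors and adaptors that can bind SHP-1 or SHP-2 or act beside them, 9 were tested, 6 positive and 3 negative, with a median of 0.10, and 8 had 0 reads in every library. Pecam1, an adhesion receptor with inhibitory motifs, was at 84.3 and 70.8 CPM in the KITKO libraries, against 43.4 and 55.1 CPM in the KI libraries (log2 0.67 ± 0.40, edgeR adjusted p = 1.000). Cd200r1, an inhibitory receptor that signals mainly through Dok adaptors, was at 6.77 and 5.59 CPM in the KITKO libraries, against 17.6 and 22.6 CPM in the KI libraries (log2 -1.68 ± 1.21, edgeR adjusted p = 1.000). For both genes, named for the smallest p of this list, the groups were apart, in opposite directions. Of the 9 tested genes, KITKO libraries lay wholly below KI libraries for 2 and wholly above for 2, where all tested genes gave 18.7% and 15.1%.

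Among RelA, its partners and the kinases and adaptors upstream of them, a route that Vav1 feeds, 16 of 16 were tested, 4 positive and 12 negative, with a median of -0.20. Rela, which encodes RelA, was at 175.5 and 191 CPM in the KITKO libraries, against 256.5 and 270 CPM in the KI libraries (log2 -0.50 ± 0.19, edgeR adjusted p = 1.000). Nfkb2, which encodes p100, the precursor of the alternative NF-kB route, was at 57.5 and 92.2 CPM in the KITKO libraries, against 40.2 and 33.3 CPM in the KI libraries (log2 1.06 ± 0.48, edgeR adjusted p = 1.000). The groups did not overlap for either gene, with Rela lower and Nfkb2 higher in the KITKO libraries. Both were named for the smallest p of this list. KITKO libraries lay wholly below KI libraries for 1 of the 16 genes and wholly above for 1, where all tested genes gave 18.7% and 15.1%.

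**Figure D4:**
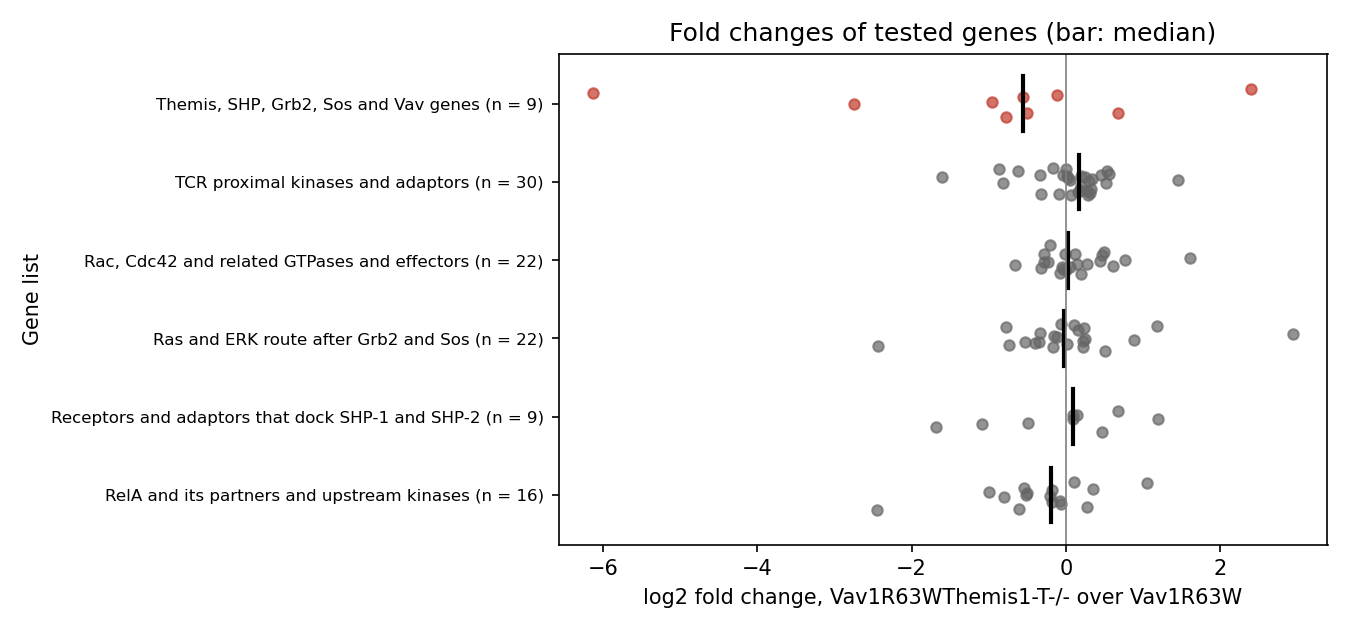
Log2 fold change, Vav1R63WThemis1-T-/- over Vav1R63W, of each tested gene (points, edgeR) in the members (red, 9 genes) and in 5 lists of the same signalling routes (grey), with black bars at the medians. The members' median is at -0.56, and the medians of the other lists lie between -0.20 and 0.17.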

How the data were processed

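RNA of 4 libraries was analysed, 2 per group, grouped by title. FastQC, Trim Galore, STAR and MultiQC are named in the submitters' processing notes, without versions. The design text names Ensembl 90, the processing notes mm9, and these are different mouse builds. The deposited files hold raw read counts per gene, unstranded and per strand, and the unstranded column equals the deposited series table for all 52636 genes. That table also holds the authors' fold change as a linear ratio, their log2 fold change and their p-values, made with DESeq2 per the design text; the authors' 4 normalized columns were not used. Summary lines (unmapped, multimapping, no feature, ambiguous) held 21.1% to 23.1% of reads and were left out.

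Symbols were matched for 52403 IDs. Coordinates and exon lengths are from GENCODE M21 (GRCm38), not used for counting. CPM used library totals. The test was edgeR 4.0.16 (R 4.3.3): TMM, filterByExpr (minimum count 10, total 15), robust quasi-likelihood F test, two-sided, no block, Benjamini-Hochberg over all tested genes, called under 0.05. SE is the log2 fold change over the root of F. Alternatives were DESeq2 1.42.0, limma-voom (limma 3.58.1), other scalings, filters, strand columns, a replicate block and leaving out each library. Scripts were tested on simulated data with far less spread than these libraries, whose common biological coefficient of variation was 1.023. That run does not show which changes could be detected here. The limit of 3 reads covers counting error only, since PCR copies are not independent molecules. Named genes are the members, the 2 genes of smallest p per pathway list, the 2 most abundant per marker list, Foxp3, Il2ra and Cd4. Also named are the 3 genes nearest in pattern to Themis, Vav1 and Ptpn6. Other marker genes, with or without reads, were chosen after their values were seen. The members and lists were chosen with earlier results of these data known. Some listed genes and 1 gene near Ptpn6 in pattern are not reported here.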

Additional observations from a re-analysis of the deposited data

How the results depend on the processing

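Of 125 fold changes of members under the alternatives, 117 kept their sign and stayed uncalled, and 8 changed sign without being called. For Themis these were -3.05 with limma-voom, -2.93 with the replicate block and -10.55 without KITKO replicate 2. Without KITKO replicate 2 they were also 0.14 for Vav2, 0.19 for Ptpn11, 0.47 for Grb2 and -7.31 for Sos1, and without KI replicate 2 it was 0.84 for Vav2. Outside the members Braf was -2.69 without KITKO replicate 3. Leaving out each library in turn gave -10.55 to 1.68 for Themis, -4.06 to 0.84 for Vav2, -2.26 to 0.19 for Ptpn11, -1.14 to 0.47 for Grb2, -12.34 to -1.76 for Vav3, -7.31 to 9.76 for Sos1, -6.95 to -3.97 for Sos2, -1.60 to -0.52 for Vav1 and -2.69 to 3.92 for Braf. The cause was not tested. Sos2 did not pass the filter in the first strand column, so that alternative gave no value. Calls over all genes were 0 in every alternative except DESeq2, which called 206 (85 higher and 121 lower in the KITKO libraries); for the 5 pathway lists DESeq2 called 1, and for the members every alternative called 0. Fits that leave out a library assume that the lone library of its group varies like the other group. Deviations of libraries with the same replicate number correlated at 0.0179 over 10216 genes, so the numbers were not taken as pairs, and the replicate block moved the genes at an unadjusted p under 0.05 to 163 and called 0. Vav2, Sos1 and Sos2 had few reads in most libraries, which limits the precision of their values, but their libraries also differed by more than their totals do; the cause was not tested.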
